A study of Mus musculus with 20 samples.

Results

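The cardiac thick filament was followed here through 8 genes, Myh6, Myh7, Myl2, Myl3, Myl4, Myl7, Mybpc3 and Ttn, chosen by gene symbol for their known place in the myosin filament. All 8 were found in both deposited tables, among 22102 entries of a differentiation time course and 42458 entries of a survey of cell lines. The series measured polyadenylated RNA by sequencing in 20 mouse libraries, to ask what the long noncoding RNA Braveheart does while embryonic stem cells become heart muscle cells, and which noncoding RNAs mark stem cells. The time course held 12 libraries and the survey 8.

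Time course cells were E14 embryonic stem cells, a line of strain 129/Ola, carrying a short hairpin RNA from a pLKO.1 lentivirus and selected with puromycin. One culture carried hairpin A against Braveheart, another hairpin B against Braveheart, and the third a scrambled hairpin. Each of the 3 cultures gave 1 library at days 0, 3, 6 and 9, so hairpins A and B, which are different hairpins, served as the 2 replicates of the depleted group and the scrambled group had 1 library a day. For every time course sample the labels describe embryoid body formation as well as a directed heart muscle protocol, without saying which applied to it. The survey libraries were wild-type embryonic stem cells (mESC) from E14 (129/Ola, 2 libraries) and from v6.5 (129/svJae x C57BL/6, 2 libraries), 1 induced pluripotent line (miPS), 2 partially reprogrammed fibroblast lines named 11.3 and 11.5, and 1 library of the embryonic fibroblasts (MEF) they were made from. The miPS, partially reprogrammed and MEF cells shared an Oct4-GFP reporter on a 129/svJae x C57BL/6 background, and the reprogrammed lines had received Oct4, Sox2, c-myc and Klf4 by retrovirus. Per the labels, stem cells and miPS cells grew on irradiated fibroblasts that were removed by pre-plating, whereas lines 11.3 and 11.5 grew without feeders. Nothing in the labels ties replicate libraries to separate derivations, and p-values therefore measure the spread of these libraries alone, which may be technical.

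The thick filament is the motor of the sarcomere, the contractile unit of striated muscle. Its myosin heavy chains burn ATP and pull on actin, its light chains wrap the neck of each heavy chain, myosin binding protein C tunes how readily the heads reach actin, and titin runs the length of the filament as a spring and ruler. In the mouse heart, the heavy chain Myh6 (alpha) and the light chains Myl4 and Myl7 are the atrial or adult-type forms, and Myh7 (beta), Myl2 and Myl3 are the embryonic or ventricular forms. Early heart tubes make these forms together before the chambers separate them.

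The promoters of 3 members are shown because the genes followed similar courses, and because the windows of Myl7 and Mybpc3 each held matches to 3 of the motifs searched while Myl3 had a different timing. Each sequence is the 250 bases before the RefSeq start site (build GRCm38.p6), 5′ to 3′ on the gene's strand, with motif matches in capitals. Myl7 lay on the minus strand at chr11:5898783-5899032, Mybpc3 on the plus strand at chr2:91117894-91118143, and Myl3 on the plus strand at chr9:110763428-110763677.
Myl7: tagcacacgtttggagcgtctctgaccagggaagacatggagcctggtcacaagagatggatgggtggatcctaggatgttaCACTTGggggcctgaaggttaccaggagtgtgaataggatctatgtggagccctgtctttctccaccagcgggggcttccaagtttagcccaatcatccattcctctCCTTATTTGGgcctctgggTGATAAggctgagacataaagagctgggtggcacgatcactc
Mybpc3: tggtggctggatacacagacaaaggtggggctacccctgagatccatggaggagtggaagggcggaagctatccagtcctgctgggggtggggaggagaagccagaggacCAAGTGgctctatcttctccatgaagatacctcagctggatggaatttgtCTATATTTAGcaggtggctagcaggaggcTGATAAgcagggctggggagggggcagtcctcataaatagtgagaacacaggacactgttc
Myl3: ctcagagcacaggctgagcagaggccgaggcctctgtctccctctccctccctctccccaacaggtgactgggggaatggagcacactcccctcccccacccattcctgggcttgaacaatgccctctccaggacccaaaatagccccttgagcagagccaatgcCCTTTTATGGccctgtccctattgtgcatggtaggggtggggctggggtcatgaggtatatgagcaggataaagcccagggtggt

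In the Myl7 sequence the capitals mark, from left to right, an NKX2-5 match, an SRF CArG box and a GATA match, which began 168, 61 and 42 bases before the start site. In Mybpc3 they mark an NKX2-5, a MEF2 and a GATA match at 140, 90 and 61 bases before the start, and in Myl3 a CArG box at 85 bases. Both strands were searched, for GATA as AGATAA with T also allowed as the first letter, for NKX2-5 as CAAGTG, for the T-box as AGGTGT, for the TATA box as TATAAA, and for MEF2 and the CArG box by their consensus, and none of the matches shown overlapped another. These factors are known regulators of heart muscle genes. All 8 members had a window of 300 bases (250 before and 50 after the start). GATA was found in 3 of the 8 members (Myl2, Myl7 and Mybpc3) and in 18.6% of the 32851 windows searched, which do not cover every chromosome. A member was counted if any of its windows held a match, and Myh7 and Myl2 had 2 windows each. The background was counted by window, so the shares are not the same measure. MEF2 was found in 2 members (Mybpc3 and Ttn) against 3.69% of windows, the CArG box in 2 (Myl3 and Myl7) against 1.63%, and NKX2-5 in 2 (Myl7 and Mybpc3) against 13.6%. The TATA box letters were found in Myh6 and Myl2 (13.6% of windows). In Myh6 they began at position 2 after the start site. In Myl2 they lay on the opposite strand, 216 bases before the start site of its window 2. The T-box letters, present in 13.7% of windows, were in no member's window. A match is a description of the letters only.

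The time course values are FPKM, read fragments scaled to transcript length and library size, which can be compared between genes. Low values implied depths of 6740000 to 11000000 reads per library. A count of 3 reads then stood for up to 0.0728 FPKM for Myh6 (annotated transcript of 6113 bases), but up to 0.501 FPKM for Myl2 (889 bases) and 0.755 FPKM for Myl7 (590 bases), and for 0.00417 FPKM at most for Ttn (106824 bases). These floors cover counting error only. They and the read numbers below use the longest annotated coding transcript, which may differ from the length behind the FPKM. For Myl2 the smallest value above 0 then stands for about 1.63 reads (hairpin A, day 0). Its other low values lie near multiples of that, so its read numbers are probably too high and its floor too low. The level of Braveheart itself was not analysed here. At day 9 the 10 cardiomyocyte markers, none of them a member, summed to 53.4 FPKM in hairpin A (6 above 1 FPKM) and 23.7 FPKM in hairpin B (8 above 1 FPKM), against 312 FPKM in the scrambled culture (10 above 1 FPKM). The hairpin B libraries stood apart late in the course: 10 pluripotency markers summed to 4988 FPKM at day 6 and 7818 FPKM at day 9, against 1431 and 960 FPKM in hairpin A and 1077 and 810 FPKM in the scrambled culture. Called results and medians that rest on hairpin B are therefore also given for hairpin A alone.

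At day 9, the last day sampled, every thick filament gene read lower with either hairpin than with the scrambled one, and 7 of the 8 were lower in hairpin B than in hairpin A. A gene lower in both hairpins was common on that day, 34.2% of the 14108 genes tested. None of the 7 members tested passed limma's adjusted threshold of 0.05, as 0.0354% of genes did, although all 7 had an unadjusted p under 0.05, as 199 of all genes tested did. The median difference of the tested members was -2.79 on the log2(FPKM + 1) scale, hairpins minus scrambled, beside -0.07 over all genes. With hairpin A alone the median was -2.00, beside -0.03 over all genes. The marker sums of some other cell types were also lower in both hairpins, but not all. Smooth muscle markers summed to 90.7 and 164 FPKM in hairpins A and B, against 145 FPKM in the scrambled culture. Skeletal muscle markers summed to 3.21 and 11.9 FPKM, against 4.29 FPKM. The 6 blood markers summed to 96.2 and 2.16 FPKM in hairpins A and B at day 9 (3 and 1 of them above 1 FPKM), against 229 FPKM in the scrambled culture (4 of them), and the embryonic globins Hbb-bh1, Hba-x and Hbb-y were listed at 0 in hairpin B. The 8 fibroblast markers summed to 80.7 and 35.5 FPKM in hairpins A and B (8 and 6 above 1 FPKM), against 159 FPKM in the scrambled culture (8), and the 6 endoderm markers to 61.2 and 3.92 FPKM (6 and 2 above 1 FPKM), against 71.9 FPKM (6). The 6 endothelial markers summed to 26.7 and 43.55 FPKM (6 and 2 above 1 FPKM), against 46.6 FPKM (6). Single blood, fibroblast, endoderm and endothelial markers did not all follow their sum. Col1a1, Col1a2, Thy1, Gata1, Pecam1 and Tek in hairpin B and Sox17, Foxa2, Cer1 and Thy1 in hairpin A read above scrambled. Klf1 did so in both hairpins, at 0.525 and 0.429 FPKM against 0.336 FPKM. The part of other cell types in the members' levels was not tested. These are bulk libraries, in which fewer heart muscle cells and less RNA per cell cannot be told apart.

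**Figure D1:**
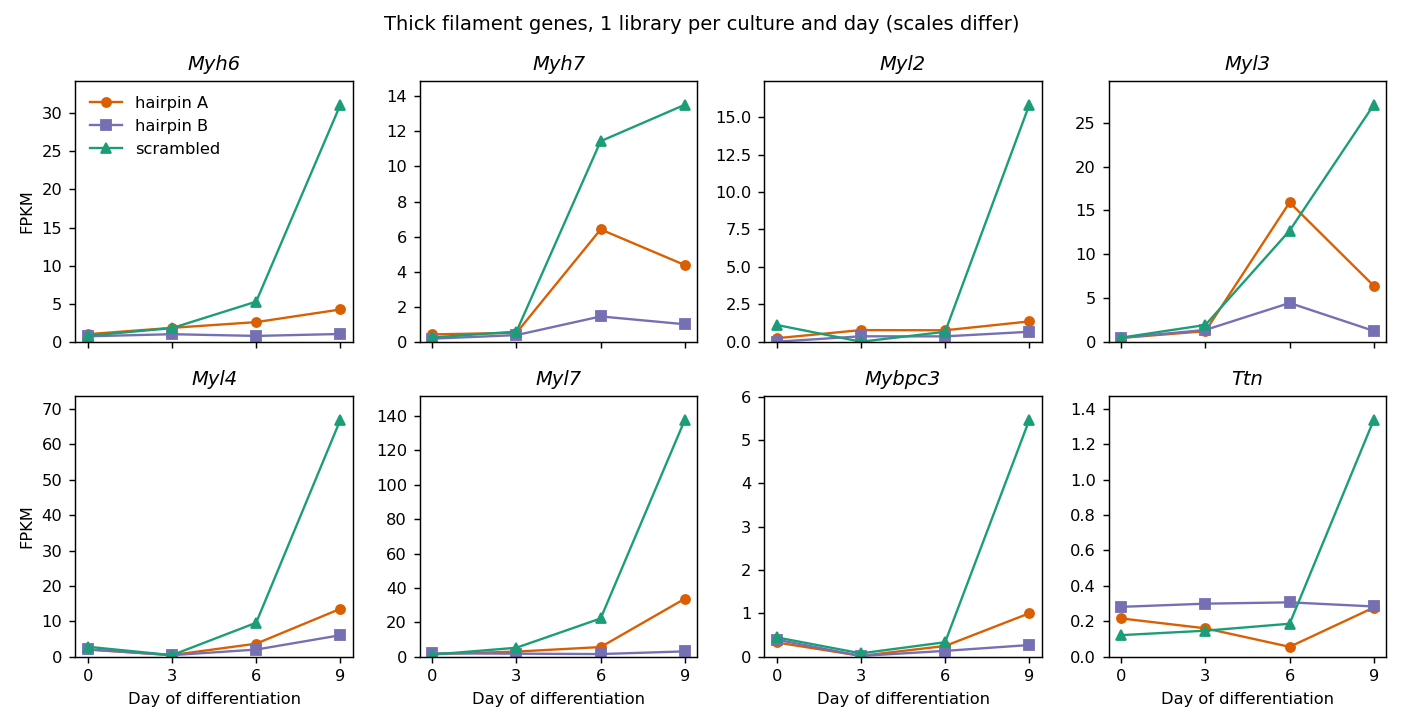
FPKM of each thick filament gene (vertical axis, linear, a different scale per panel) against the day of differentiation, with 1 library per point for hairpin A (circles), hairpin B (squares) and scrambled (triangles). The scrambled point is the highest of the 3 at day 9 in all 8 panels, while Myh7 and Myl3 have their highest hairpin points at day 6.

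Among the heavy chains, Myh6, the fast alpha motor of the adult mouse heart (mm9 chr14:55560757-55585444), read 4.23 FPKM in hairpin A and 1.02 FPKM in hairpin B, against 31.1 FPKM in the scrambled culture. Myh7, the slower beta motor that lies beside it (chr14:55589524-55613386), read 4.37 and 0.997 FPKM in hairpins A and B, against 13.5 FPKM in the scrambled culture. Both heavy chains were thus high in the scrambled library alone, and Myh7 kept the larger part in hairpin A, 32.4% of the scrambled level against 13.6% for Myh6. The fitted log2 differences were -3.31 (SE 0.66) for Myh6 and -2.15 (SE 0.78) for Myh7, each with an adjusted p of 0.873 (limma, Benjamini-Hochberg). The longest coding transcripts of Myh6 and Myh7 share 29.3% and 28.8% of their 36-base words, so the authors' counting could split some reads between them. No other pair of members shared any.

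Of the light chains, Myl7, the atrial regulatory chain, was the most abundant member per length on day 9 in the scrambled culture, and in hairpin A too. It read 33.7 FPKM in hairpin A and 3.14 FPKM in hairpin B, against 138 FPKM in the scrambled culture. The hairpin B value was 2.28% of the scrambled one, the lowest share of any member, and the fitted difference was -3.53 (SE 1.18, limma adjusted p 0.873). Myl2, the ventricular regulatory chain, read 1.36 and 0.664 FPKM in hairpins A and B, against 15.8 FPKM in the scrambled culture. By annotated length its hairpin values came from about 8.1 and 6.5 reads, and probably from fewer, close to the floor. Its fitted difference of -3.09 (SE 0.38) had the smallest adjusted p of the members, 0.230 (limma).

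The essential light chains were lower by similar amounts. Myl4, the atrial and fetal essential chain, read 13.5 and 6.09 FPKM in hairpins A and B, against 66.9 FPKM in the scrambled culture, a difference of -2.74 (SE 0.48). Myl3, the ventricular essential chain, read 6.37 and 1.23 FPKM in hairpins A and B, against 27.1 FPKM in the scrambled culture, a difference of -2.79 (SE 0.85). In both genes, as in every member at day 9, both hairpin libraries read below the single scrambled library. Hairpin A was nearer to it, and both genes had a limma adjusted p of 0.873.

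Mybpc3, the cardiac myosin binding protein C, read 1.004 FPKM in hairpin A and 0.271 FPKM in hairpin B, against 5.47 FPKM in the scrambled culture. The difference of -2.02 (SE 0.35) had a limma adjusted p of 0.873. Ttn, titin, read 0.278 and 0.284 FPKM in hairpins A and B, against 1.34 FPKM in the scrambled culture, and was the one member with a level in hairpin B above that in hairpin A. Ttn was not tested, since it reached 1 FPKM in the day 9 scrambled library only and the filter asked for 2 libraries. Its low FPKM still stood on about 200.1 and 334 reads in hairpins A and B, because the transcript is so long.

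The day 9 calls differed with the hairpin left out. Each such comparison sets 1 library against 1 library, and its p-values take their spread from the hairpin pairs of the other days, which the day 9 libraries are assumed to share. With hairpin B alone, 5 of the 7 members passed limma's adjusted threshold, namely Mybpc3 (-2.35, adjusted p 0.0218), Myl2 (-3.34, adjusted p 0.0260), Myl4 (-3.26, adjusted p 0.0283), Myl7 (-5.07, adjusted p 0.0405) and Myh6 (-3.99, adjusted p 0.0451), while 0.851% of all genes were called as lower. With hairpin A alone none of the 7 did (6 at an unadjusted p under 0.05), while 0.0709% of genes were called as lower, although each member was still at most 32.4% of its scrambled level. The high pluripotency marker sum of hairpin B at day 9 moved with these values, and its part in them was not tested.

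**Figure D2:**
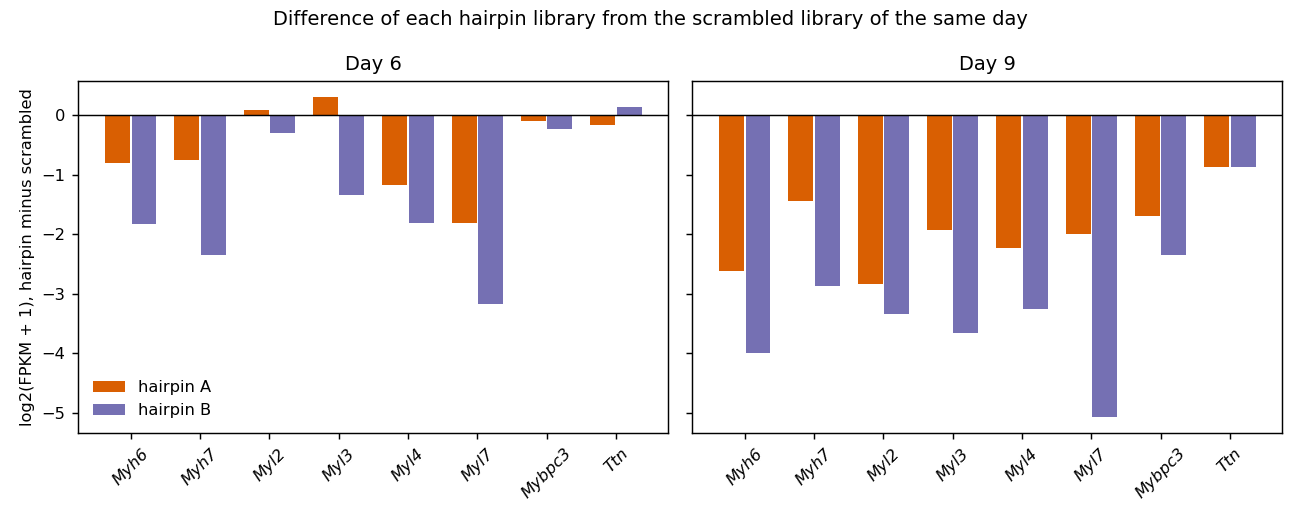
Difference of each hairpin library from the scrambled library of the same day, on the log2(FPKM + 1) scale (vertical axis), for hairpin A and hairpin B at days 6 and 9. All bars are below 0 at day 9, where Myl7 in hairpin B is the lowest at -5.07, whereas Myl3 and Myl2 in hairpin A and Ttn in hairpin B are above 0 at day 6.

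At day 6 the members did not move as 1 group. Myh6, Myh7, Myl4, Myl7 and Mybpc3, 5 of the 8, were lower in both hairpins, while 33.4% of all genes tested were, and Myl2, Myl3 and Ttn were lower in only 1 of them. The authors' quantification marked the day 6 values of Ttn in hairpin A and of Myh6 in hairpin B as low data. It also marked Ttn in hairpin A at day 3. Myl7 read 5.66 FPKM in hairpin A and 1.59 FPKM in hairpin B, against 22.3 FPKM in the scrambled culture. Myl4 read 3.70 and 2.03 FPKM in hairpins A and B, against 9.61 FPKM in the scrambled culture. Both light chains thus read lower in either hairpin library than in the single scrambled library. Among the heavy chains, Myh7 read 6.41 and 1.44 FPKM in hairpins A and B, against 11.4 FPKM in the scrambled culture, and Myh6 2.58 and 0.762 FPKM, against 5.27 FPKM. Myl3 went the other way in hairpin A, with 15.9 FPKM in hairpin A and 4.42 FPKM in hairpin B, against 12.7 FPKM in the scrambled culture. None of the 7 tested members passed limma's adjusted threshold at day 6, which 0.0425% of genes passed. At an unadjusted p under 0.05 were 1 of 7 members, Myl4, and 148 of all genes tested. The members' median difference was -1.32 beside -0.02 over all genes. The median was -0.75 with hairpin A alone and -1.81 with hairpin B alone. The 6 blood markers moved with the members here too, at 119 and 3.37 FPKM in hairpins A and B, against 556 FPKM in the scrambled culture, and their part was not tested.

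On the earlier days the members had no common direction. At day 0, 4 members were lower and 2 higher in both hairpins than in the scrambled culture, where 29.9% of all genes were lower and 32% higher. At day 3 the members again split 4 and 2, with 27.8% and 26.7% of all genes. No member passed limma's adjusted threshold on either day, which 0.0213% of genes did at day 0 and 0.0284% at day 3. At an unadjusted p under 0.05 there was 1 member at day 0 and none at day 3, beside 66 and 37 of all genes tested. At day 0 it was Myl2, at 0.233 and 0 FPKM in hairpins A and B, against 1.120 FPKM in the scrambled culture. All adjusted p-values on both days were 1. The change of the hairpin effect between days 0 and 9 was also uncalled for every member (limma adjusted p 0.9995 each), as it was for all but 0.0496% of genes. At an unadjusted p under 0.05 were 4 of 7 members and 157 of all genes tested. The median change was -2.42 over the members and -0.08 over all genes.

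The course of differentiation itself was asked of the 3 cultures together, each later day against an earlier one. On day 9, Myh7, Myl3, Myl4 and Myl7, 4 of the 7 members tested, were higher than on day 0, while 10.3% of the 14108 genes rose. Myl7 rose by 3.39 (SE 0.91, limma adjusted p 0.0393), Myl4 by 2.53 (SE 0.53, adjusted p 0.0227), Myl3 by 2.42 (SE 0.66, adjusted p 0.0409) and Myh7 by 2.08 (SE 0.58, adjusted p 0.0436). Myh6 differed by 1.94 (adjusted p 0.0689), Myl2 by 1.55 (adjusted p 0.0994) and Mybpc3 by 0.87 (adjusted p 0.130). In 5 members, those 4 and Myh6, all day 9 libraries lay above all day 0 libraries, as did 19.5% of all genes. The calls depended on the cultures used: none of the 7 passed without the hairpin A culture, where 0.0496% of all genes rose, or without the scrambled culture, where 0.0284% did. Without hairpin B, 6 passed, as Myh6 (2.79) and Mybpc3 (1.38) joined, while 37.6% of all genes rose. The number of calls over all genes thus moved with the cultures in the same direction as that of the members. Without the filter on low values, which tests more genes, 1 member passed, Myl4 (adjusted p 0.0341), while 5.21% of genes rose.

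Levels on the way were low. Myl7 read 1.55, 3.02, 5.66 and 33.7 FPKM at days 0, 3, 6 and 9 of hairpin A, 2.02, 1.81, 1.59 and 3.14 FPKM in hairpin B, and 1.24, 5.25, 22.3 and 138 FPKM in the scrambled culture. Over the last step the level of Myl7 was multiplied by 5.96 in hairpin A and by 6.18 in the scrambled culture, 1 library each and with no test of the difference, whereas hairpin B stayed between 1.59 and 3.14 FPKM on all days. Myh6 read 0.990, 1.82, 2.58 and 4.23 FPKM in hairpin A, 0.710, 0.987, 0.762 and 1.02 FPKM in hairpin B, and 0.776, 1.79, 5.27 and 31.1 FPKM in the scrambled culture. In Myh6 the last step was 1.64 times in hairpin A against 5.91 times in the scrambled culture.

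Myh7 and Myl3 were the members called as higher by day 6. From day 0 to day 6 Myl3 rose by 2.90 (SE 0.66, limma adjusted p 0.0319) and Myh7 by 2.26 (SE 0.58, adjusted p 0.0451), 2 of 7 members against 4.97% of genes that rose. In these 2 members alone every day 6 library was above every day 0 library, as in 23.2% of all genes. Both calls were lost without hairpin A or without the scrambled culture, where none of the 7 passed and 0.0142% and 0% of all genes rose. Without hairpin B, Myl7 (2.38) joined them, while 30.4% of all genes rose. Without the filter on low values Myl3 alone passed (adjusted p 0.0464), while 3.21% of genes rose. From day 3 to day 6, 3 of 7 members (Myh7, Myl3 and Myl4) had an unadjusted p under 0.05 in limma, as did 3844 of the 14108 genes tested. No member passed limma's adjusted threshold, which 5.76% of genes passed. With culture as a replicate block Myh7 did, with an unchanged difference of 2.04 and an adjusted p of 0.0384 in place of 0.0719, while 6.85% of genes rose. Without hairpin B, Myh7 (2.64), Myl3 (2.59) and Myl4 (2.26) all passed, while 27.9% of all genes rose. In these 3 members and Mybpc3, every day 6 library was above every day 3 library, as in 24.6% of genes.

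The same pair, Myh7 and Myl3, was past its highest level by day 9 in both hairpin cultures but not in the scrambled culture. Myl3 read 0.433, 1.20, 15.9 and 6.37 FPKM at days 0, 3, 6 and 9 of hairpin A, 0.449, 1.35, 4.42 and 1.23 FPKM in hairpin B, and 0.462, 1.91, 12.7 and 27.1 FPKM in the scrambled culture. Its day 6 level was 250% of its day 9 level in hairpin A and 359% in hairpin B, against 46.9% in the scrambled culture. Myh7 read 0.418, 0.506, 6.41 and 4.37 FPKM in hairpin A, 0.174, 0.377, 1.44 and 0.997 FPKM in hairpin B, and 0.243, 0.577, 11.4 and 13.5 FPKM in the scrambled culture, and its day 6 level was 146% and 145% of day 9 in hairpins A and B, against 84.6% in the scrambled culture. Of the remaining members, Myh6, Myl2, Myl4 and Myl7 were highest at day 9 in every culture, and Mybpc3 and Ttn in hairpin A and the scrambled culture but not in hairpin B. In the scrambled culture these members stood at day 6 at 4.18% (Myl2) to 16.9% (Myh6) of their day 9 level. From day 6 to day 9 no member was called in limma, while 6 of 14108 genes (0.0425%) were. At an unadjusted p under 0.05 were 2 of 7 members, Myl4 and Mybpc3, and 1985 of all genes tested. In no member did every day 9 library lie above every day 6 library, as in 8.14% of genes. Without hairpin B, Myl4 (2.15), Myl7 (2.48) and Mybpc3 (1.48) passed, while 14.2% of all genes rose.

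Myl4 and Mybpc3 had a low point at day 3. Myl4 read 2.06, 0.491, 3.70 and 13.5 FPKM at days 0, 3, 6 and 9 of hairpin A, 2.07, 0.458, 2.03 and 6.09 FPKM in hairpin B, and 2.83, 0.460, 9.61 and 66.9 FPKM in the scrambled culture. The day 3 values lay close together and below every day 0 value in all 3 cultures, near the level of 3 reads. Mybpc3 read 0.0211 FPKM in hairpin A, 0.0197 FPKM in hairpin B and 0.0793 FPKM in the scrambled culture at day 3. These values stood on about 0.830, 0.828 and 3.31 reads, so both hairpin values lay under the level of 3 reads. The day 0 values of Mybpc3 were 0.330, 0.395 and 0.447 FPKM. All day 3 libraries lay below all day 0 libraries in these 2 members and in 19.7% of all genes, and above them in 1 member (Myl3) and 22.2% of all genes. Neither gene was called (Myl4 -1.17, adjusted p 0.222; Mybpc3 -0.42, adjusted p 0.588; limma), and no member had an unadjusted p under 0.05 in that comparison. Among all genes, 6.04% were called between these days.

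Shares within a library set forms of the same subunit against each other on the FPKM scale. Myh6 made up 70.3%, 78.3%, 28.7% and 49.2% of the summed Myh6 and Myh7 level at days 0, 3, 6 and 9 of hairpin A, 80.3%, 72.3%, 34.5% and 50.5% in hairpin B, and 76.2%, 75.6%, 31.5% and 69.7% in the scrambled culture. The 3 cultures were alike at day 6, when Myh7 was the larger part in each, and at day 9 the hairpin cultures lay near an even split while the scrambled culture was again mostly Myh6. Myl4 made up 82.7%, 29.0%, 18.9% and 68.0% of the summed Myl4 and Myl3 level in the hairpin A culture, 82.1%, 25.4%, 31.5% and 83.2% with hairpin B, and 86.0%, 19.4%, 43.1% and 71.2% in the scrambled culture. Here the hairpin cultures lay on either side of the scrambled culture at day 9. Myl7 made up 96.1% and 82.5% of the summed Myl7 and Myl2 level in hairpins A and B at day 9, against 89.7% in the scrambled culture. These shares are descriptions with no test, and at days 0 and 3 they rest on low levels. The day 6 Myh6 share of hairpin B rests on a Myh6 value marked as low data.

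**Figure D3:**
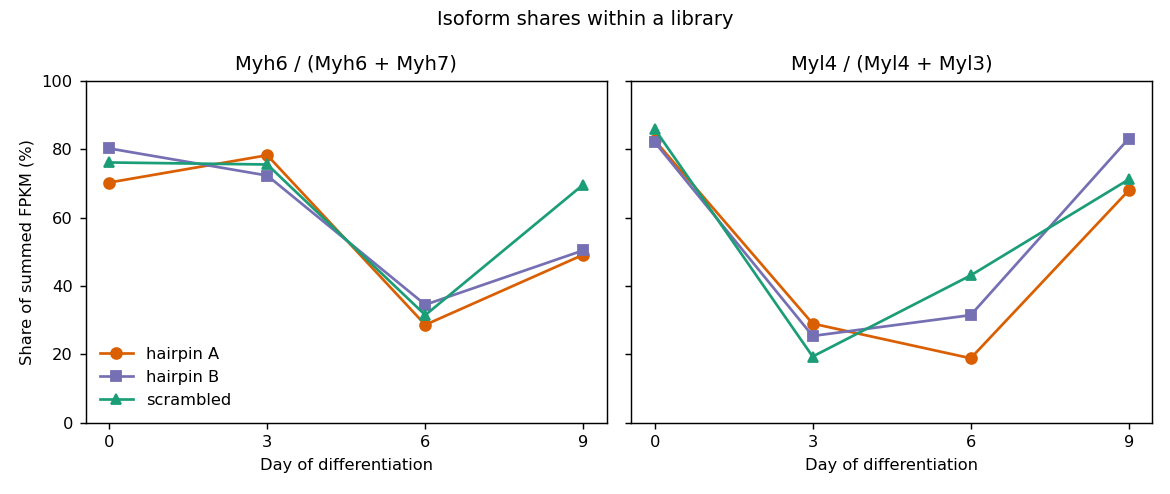
Share of Myh6 in the summed FPKM of Myh6 and Myh7 (left) and of Myl4 in the summed FPKM of Myl4 and Myl3 (right), in percent, by day for hairpin A, hairpin B and scrambled, 1 library per point. The Myh6 share is 28.7% to 34.5% in the 3 cultures at day 6 and is 69.7% in the scrambled culture at day 9, above both hairpins.

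The members also differed in how closely they kept to each other. Over the 12 libraries, Pearson's r of log2(FPKM + 1) was highest for Myl3 with Myh7 (0.965) and for Myl7 with Myh6 (0.961), and lowest for Mybpc3 with Myl3 (0.590). The points share culture and day, so r is a description. The 10 other genes whose course was most like the mean of the members were led by Popdc2, a popeye domain gene of the heart (r = 0.987), then Grap (0.986) and the cardiac troponin T gene Tnnt2 (0.975), followed by Tmem138, Amy1, Pcdh12, Foxf2, Eltd1, Angpt1 and Tcf21 (down to 0.965). Popdc2 read 1.07 and 0.0373 FPKM in hairpins A and B at day 9, against 5.21 FPKM in the scrambled culture. Tnnt2 read 9.40 and 1.29 FPKM in hairpins A and B, against 55.5 FPKM in the scrambled culture. Grap read 1.09 and 0 FPKM, against 3.21 FPKM, and each of the 10 genes read lower in both hairpins on that day. The likeness was thus not limited to the heart genes described.

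The thin filament, which carries the actin that myosin pulls on, was set beside the members. Of its 7 genes none was called between hairpins and scrambled at day 9 by limma (3 at an unadjusted p under 0.05), and their median difference was -2.45, beside -2.79 for the members and -0.07 for all genes (-1.51 with hairpin A alone). Between days 9 and 0, 4 of the 7 rose, Actc1 (3.76), Tnnt2 (3.28), Tnni1 (2.98) and Tnnc1 (2.62), and none fell, while 10.3% of all genes rose. Calls between days in this and the lists below are from the main fit. Without the hairpin A culture 0.0496% of all genes rose between these days, and without the scrambled culture 0.0284% did. Actc1, cardiac actin, read 15.4 and 4.30 FPKM in hairpins A and B at day 9, against 139.8 FPKM in the scrambled culture, whereas Tpm1, a tropomyosin that other cells also make, read 323 and 265 FPKM against 423 FPKM. The summed FPKM of the 8 thick filament genes over that of the 7 thin filament genes was 0.169 in hairpin A and 0.0435 in hairpin B at day 9, against 0.405 in the scrambled culture. Tpm1 made the larger part of each thin filament sum.

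Genes that build and modify the thick filament came next. Of the 5 tested of 10 assembly and phosphorylation genes, none was called between hairpins and scrambled at day 9 (2 at an unadjusted p under 0.05), with a median difference of -0.93 (-0.42 with hairpin A alone). Between days 0 and 9, while 10.3% of all genes rose, 3 of the 5 did. These were Mylk, the light chain kinase of smooth muscle and nonmuscle cells (1.91, adjusted p 0.0457), the myosin methyltransferase Smyd1 (1.55, adjusted p 0.0292) and the myosin chaperone Unc45b (1.13, adjusted p 0.0349, limma). Smyd1 read 2.56 and 2.25 FPKM in hairpins A and B at day 9, against 11.04 FPKM in the scrambled culture, while Unc45a, the chaperone form of many cell types, read 10.2 and 15.3 FPKM against 12.6 FPKM. Smyd1 was lower in both hairpins, and Unc45a lay on either side of the scrambled value.

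Of 15 titin partners and M-band genes, 8 were tested. None was called at day 9 between hairpins and scrambled (1 at an unadjusted p under 0.05), with a median of -0.21 (-0.28 with hairpin A alone). Between days 9 and 0, while 10.3% of all genes rose and 6.22% fell, Ankrd23 (0.97) and Obsl1 (0.89) rose and the calpain Capn3 fell by 1.62. Obsl1, an obscurin-like protein and the most abundant of them, read 15.9 and 10.7 FPKM in hairpins A and B at day 9, against 16.4 FPKM in the scrambled culture. Fhl2 read 6.17 and 2.94 FPKM against 6.98 FPKM. Other partners were further from scrambled. Myom1, the M-band protein myomesin 1, read 1.20 and 0.413 FPKM in hairpins A and B, against 5.18 FPKM in the scrambled culture, and Trim55, a ubiquitin ligase that binds titin, read 0.957 and 0.0451 FPKM, against 4.47 FPKM. Of the 15 genes, 8 were lower and 2 higher in both hairpins, while 34.2% of all genes tested were lower in both. Myom1 and Trim55 were chosen after their values were seen.

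Myosins of other tissues were also measured. Of 4 tested of 11 skeletal muscle myosin genes none was called at day 9 against scrambled (median 0.37, but -0.30 with hairpin A alone) or against day 0 (none at an unadjusted p under 0.05 in either). Mylpf, the fast skeletal regulatory light chain, read 6.97 FPKM in hairpin A and 51.4 FPKM in hairpin B at day 9, against 8.92 FPKM in the scrambled culture, while at day 0 the cultures read 33.4, 51.6 and 27.3 FPKM. Hairpin B at day 9 was therefore near the undifferentiated level of Mylpf. Myh7b read 0.905 and 3.51 FPKM in hairpins A and B at day 9, against 1.31 FPKM in the scrambled culture. Of 7 tested smooth muscle and nonmuscle myosin genes none was called against scrambled (median -0.34, or -0.19 with hairpin A alone, none at an unadjusted p under 0.05). Between days 0 and 9, while 10.3% of all genes rose, Myh10, a nonmuscle heavy chain, rose by 0.72. The nonmuscle light chains Myl6 (345 and 360 FPKM in hairpins A and B, against 446 FPKM in the scrambled culture) and Myl12b (177 and 170.1 FPKM, against 192 FPKM) were present at levels above every member.

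Known transcriptional regulators of the cardiac myosin genes were measured too, and 14 of 18 were tested. None was called between hairpins and scrambled at day 6 (median -1.25, 5 at an unadjusted p under 0.05) or day 9 (median -1.08, 2 at an unadjusted p under 0.05), with medians of -0.02 and -0.07 over all genes. With hairpin A alone the medians were -0.38 at day 6 and -0.41 at day 9. Both hairpins read below scrambled in 16 of the 18 genes at day 6 and in 14 at day 9. Of all genes tested, 33.4% and 34.2% did so. Gata5, Tbx5 and Irx4 were under 1 FPKM in every library of these days. Hand2 read 1.95 and 0.0703 FPKM in hairpins A and B at day 9, against 7.62 FPKM in the scrambled culture, and Mef2c 2.68 and 0.185 FPKM, against 5.30 FPKM, both named after their values were seen. Between days 6 and 3, Hand1 (3.02), Nr2f2 (2.70), Gata6 (2.36) and Gata4 (2.11) rose, all limma adjusted p-values being between 0.0252 and 0.0481. Of all genes, 3.03% rose between those days. Between days 9 and 0, Nr2f2 (3.40), Nr2f1 (3.19) and Hand1 (2.65) rose and Srf fell by 0.92, while 10.3% of all genes rose and 6.22% fell. Nr2f2, an orphan nuclear receptor of the developing atria, read 27.6 and 2.31 FPKM in hairpins A and B at day 9, against 27.5 FPKM in the scrambled culture. Nr2f1 read 23.0 and 1.01 FPKM in hairpins A and B, against 25.9 FPKM in the scrambled culture. In both receptors hairpin A and scrambled were alike and hairpin B stood apart, whereas the members were lower in both. The 2 regulators with the highest FPKM in any of the 12 libraries, Tead1 (37.2 and 36.2 FPKM in hairpins A and B, against 33.7 FPKM in the scrambled culture) and Srf (13.3 and 18.0 FPKM, against 13.0 FPKM), read no lower in either hairpin at day 9.

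The survey asked how much thick filament RNA undifferentiated cells hold. Its values are estimated reads per gene, given here as CPM, reads scaled to a common library total, which is not corrected for length and so serves only to compare libraries. Library totals ran from 7536503 to 23662593 reads, and 3 reads stood for 0.127 to 0.398 CPM. The deposited TPM values carry a prior: 10669 of 10710 genes with 0 reads in every library had a TPM above 0 in every library, and Myl2 with 0 reads in MEF was listed at 4.55 TPM. The replicate libraries differed by more than counting noise, the mean chi-square per gene being 19.4 between the E14 libraries, 36.5 between lines 11.3 and 11.5, and 133 between the v6.5 libraries.

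Embryonic stem cells held low levels of several members that read lower in MEF and partially reprogrammed cells, with Myh6 and Ttn the clearest. Myh6 read 14.9 and 14.2 CPM in E14, 11.3 and 6.13 CPM in v6.5 and 13.0 CPM in miPS, against 0 and 0.0504 CPM in lines 11.3 and 11.5 and 0.004 estimated reads in MEF. The pooled mESC level was at least 36.2-fold higher than the level of 3 reads in MEF and at least 62.4-fold higher than that of 3 reads over both partially reprogrammed lines. Ttn read 32.3 and 34.9 CPM in E14, 6.53 and 27.7 CPM in v6.5 and 44.7 CPM in miPS, against 2.52 and 3.46 CPM in lines 11.3 and 11.5 and 1.141 CPM in MEF. In both genes all pluripotent libraries lay above all others. The share of all genes with this order was not counted.

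By edgeR's quasi-likelihood test, Myh6 (adjusted p 0.00948) and Ttn (4.01, SE 0.96, adjusted p 0.0275) were higher in mESC than in MEF, 2 of 7 members tested, while 13.2% of 16773 genes were. Against the partially reprogrammed lines 5 of 7 were higher, Myh6 (adjusted p 0.00368), Myl4 (3.51, SE 0.58, adjusted p 0.00867), Ttn (3.02, SE 0.64, adjusted p 0.0180), Myl3 (adjusted p 0.0365) and Myh7 (4.47, SE 1.298, adjusted p 0.0459), while 16.1% of genes were. Fitted changes of Myh6 and Myl3 are left out, since lines at or near 0 reads make them depend on the prior count. Those of Myh7 and Myl4 against the partially reprogrammed lines may depend on it too. These lines held 0 and 1.62 estimated reads of Myh7, and 2.11 and 2.26 of Myl4. Leaving out single libraries changed the number of members called as higher to between 1 and 4 against MEF. Against the partially reprogrammed lines it changed to between 1 and 7. The share of all genes that were higher ran from 3.53% to 26.7% and from 7.2% to 27.5%, in the same order. The call of Myh6 was kept each time, and that of Ttn against MEF was lost without either E14 library (adjusted p 0.0717 and 0.0781) or without line 11.5 (0.0513). Against the partially reprogrammed lines, the calls of Ttn, Myh7 and Myl3 were lost without either E14 library or either partially reprogrammed line, and that of Myl4 without either partially reprogrammed line. Mybpc3 (adjusted p 0.00772) and Myl7 (0.0160) joined there without v6.5 replicate 1, where 27.5% of all genes were higher. Without the filter on low counts, 4 members passed against MEF, as 11.2% of genes did, and with limma on log2(TPM + 1), whose values carry the prior, none did.

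**Figure D4:**
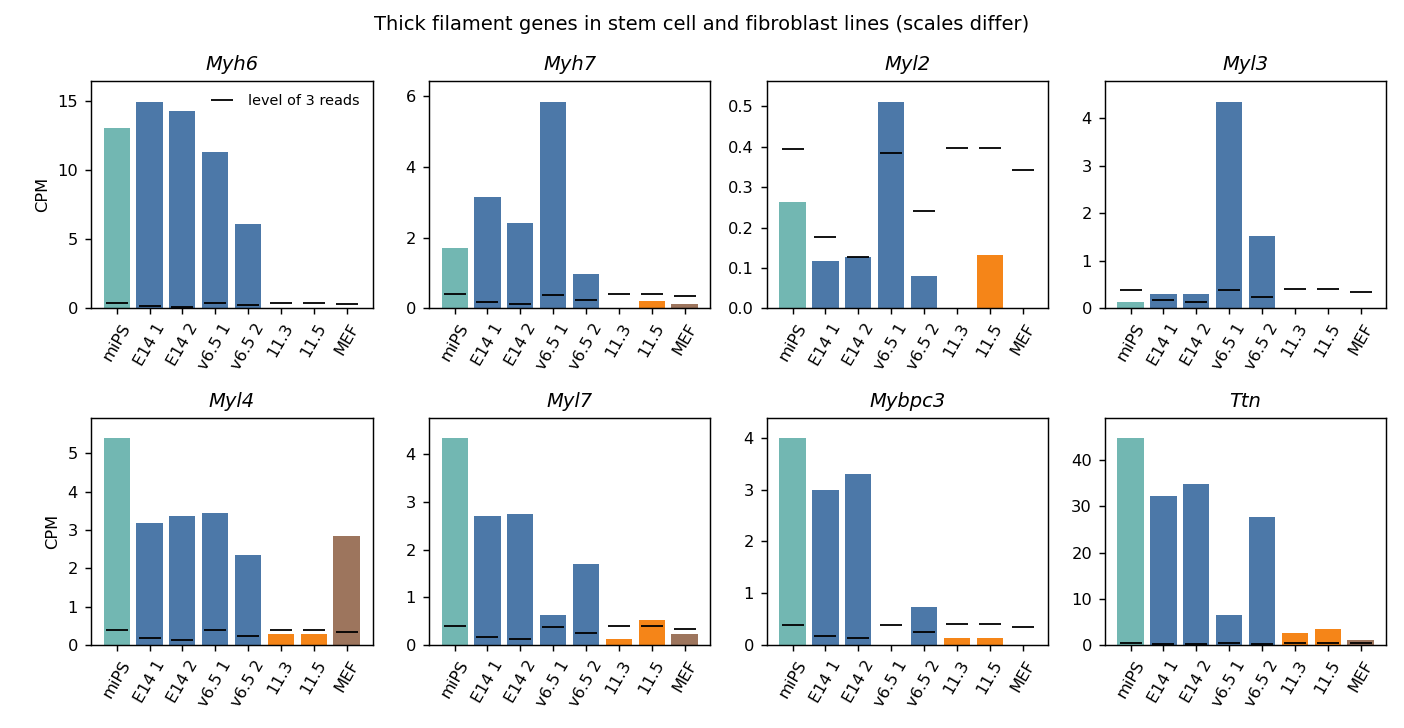
CPM of each thick filament gene (vertical axis, linear, a different scale per panel) in the 8 survey libraries, with a black dash at the level that 3 reads give in that library. Myh6 and Ttn bars are high in the E14, v6.5 and miPS libraries and lower in lines 11.3, 11.5 and MEF, where Myh6 is below the dash, and the Myl4 bar of MEF is within the range of the mESC bars.

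Myl4 in MEF lay within the range of the mESC libraries. It read 3.17 and 3.38 CPM in E14, 3.45 and 2.34 CPM in v6.5, 5.39 CPM in miPS, and 0.280 and 0.299 CPM in lines 11.3 and 11.5, against 2.85 CPM in MEF. The partially reprogrammed lines were therefore the low group, at or under 3 reads each. Their fitted changes may for that reason depend on the prior count. Against MEF their Myl4 level fell by 3.75 on the log2 scale (SE 0.69, edgeR adjusted p 0.0198), the 1 of 7 members called in that comparison, in which 8.87% of genes fell. The call was lost when either E14 library or either partially reprogrammed line was left out (adjusted p 0.0732 to 0.0798). The ratio of pooled CPM of the mESC libraries over MEF was 1.09, with an exact counting interval of 0.719 to 1.73 at the 95% level.

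Myh7 and Myl7 were above the level of 3 reads in every pluripotent library. Myh7 read 3.16 and 2.40 CPM in E14, 5.84 and 0.974 CPM in v6.5 and 1.69 CPM in miPS, against 0 and 0.214 CPM in lines 11.3 and 11.5 and 0.114 CPM in MEF. Myl7 read 2.70 and 2.75 CPM in E14, 0.640 and 1.69 CPM in v6.5 and 4.33 CPM in miPS, against 0.133 and 0.530 CPM in lines 11.3 and 11.5 and 0.228 CPM in MEF. All pluripotent libraries again lay above all others, an order whose share over all genes was not counted. For Myl7 it rested on 5 reads in v6.5 replicate 1 against 4 reads in line 11.5. Myl2 had at most 4 reads in any library and was not tested.

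The E14 and v6.5 lines differed most in Mybpc3 and Myl3, in opposite directions. Mybpc3 read 3.00 and 3.30 CPM in E14, against 0 and 0.726 CPM in v6.5. Myl3 read 0.294 and 0.296 CPM in E14, against 4.35 and 1.52 CPM in v6.5. The lines did not overlap in either gene, but the share of all genes without overlap was not counted. By edgeR neither was called (Mybpc3 3.06, adjusted p 0.173, and Myl3 -3.16, adjusted p 0.141). Among the 7 members none was called by edgeR, by DESeq2 or by limma on log2(TPM + 1), where 0.489% of genes were called by edgeR. In edgeR 2 members had an unadjusted p under 0.05, as did 3140 of the 16773 genes tested. Between miPS and mESC no member was called by any of these tools either, with none at an unadjusted p under 0.05 in edgeR and 0.0298% of genes called. Mybpc3 read 3.99 CPM and Myl3 0.131 CPM in miPS. Myl3 had 0 reads in lines 11.3 and 11.5 and in MEF, where 3 reads would be 0.342 CPM, above the E14 levels and below those of v6.5.

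Stem cells had grown on fibroblast feeders, and 8 fibroblast markers summed to 490 to 732 CPM in mESC and 683 CPM in miPS, against 57.3 and 2.53 CPM in lines 11.3 and 11.5 and 51674 CPM in MEF. MEF held almost no Myh6 and 1.141 CPM of Ttn, below the mESC levels of both, but 2.85 CPM of Myl4, within the mESC range. The part of feeder cells in the mESC levels was not tested. The 10 cardiomyocyte markers summed to 23.4 to 28.8 CPM in mESC and 18.1 CPM in miPS, against 10.96 and 13.6 CPM in lines 11.3 and 11.5 and 9.88 CPM in MEF. Their part in the mESC levels of the members was not tested.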

How the data were processed

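The authors deposited FPKM per gene for the 12 time course libraries, aligned by TopHat 1.14 over Bowtie 0.12.7 to build mm9 and quantified by Cufflinks 1.3.0, and ratios of (FPKM + 1) between libraries, which were not used here, per the submitters' processing notes and the file headers. For the 8 survey libraries they deposited expected counts and TPM with bounds, from RSEM after TopHat 1.3 (build mm9, same notes). Annotation and strand use are not given in the sources used here.

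Time course values were tested with limma 3.58.1 (R 4.3.3, mean trend) on log2(FPKM + 1), which understates the change of low genes, over the 14108 genes that reached 1 FPKM in 2 or more libraries. The depletion effect was the mean of the 2 hairpin libraries minus the scrambled library in 1 fit of 8 groups with 4 residual degrees of freedom, the lone scrambled library being assumed to vary like them. Comparisons of days used all 3 cultures, with hairpin or scrambled as covariate (7 residual degrees of freedom). Expected counts, rounded to whole numbers, were tested with edgeR 4.0.16 (TMM, quasi-likelihood) in 5 groups with 3 residual degrees of freedom, over the 16773 genes that reached 1 CPM in 2 or more libraries; DESeq2 1.42.0 was an alternative. All p-values were two-sided and adjusted by Benjamini-Hochberg over all genes tested, with a threshold of 0.05. Both procedures were tested on simulated data.

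Each culture is 1 transduced line sampled repeatedly, which pairs its libraries across days; correlations of deviations from the day means within a culture ran from -0.091 to 0.642. All 8 members were named in every comparison. From the 6 other lists, the 2 genes with the highest FPKM in any time course library were named, and those past the threshold in the comparisons described for that list; exceptions are stated. The members and lists were chosen with earlier results of these data known. Promoter windows are from RefSeq (GRCm38.p6).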

Additional observations from a re-analysis of the deposited data

Results flagged for a closer look

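Ttn was singled out because both hairpin cultures lay above the scrambled culture at day 0 and below it at day 9. It read 0.216 and 0.282 FPKM in hairpins A and B at day 0, against 0.122 FPKM in the scrambled culture, and 0.278 and 0.284 FPKM in hairpins A and B at day 9, against 1.34 FPKM in the scrambled culture. The mean difference at day 9 was -0.87 on the log2(FPKM + 1) scale. The difference between the days was not tested, because Ttn did not pass the filter on low values.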

How the results depend on the processing

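The number of members called was recomputed under each alternative, and 90 of those counts stayed within 1.5 times of the main count while 30 did not. Without a filter on low values, 1 member was called for the hairpins at day 9 (Myl2) and 1 each between days 6 and 0 and days 9 and 0. Without a filter on low counts there were 4 between mESC and MEF and 2 between E14 and v6.5. Between days 6 and 3 a pseudocount of 0.1 called 2 and the replicate block of culture 1 (Myh7), and no other call changed under either replicate block. Leaving out single libraries or cultures gave between 0 and 5 called members for the hairpins at day 9, 0 and 3 between days 6 and 0, 0 and 6 between days 9 and 0, and 0 and 3 for each of days 6 and 3, days 9 and 6, and E14 and v6.5. It gave 1 to 4 between mESC and MEF, 1 to 7 between mESC and the partially reprogrammed lines and 0 to 1 between those lines and MEF. Among log2 differences of single members, 6 turned sign. Without hairpin B at day 6 Myl2 was 0.0865 and Myl3 was 0.31. Without the scrambled culture Myl2 was 0.49 between days 3 and 0 and -0.0079 between days 6 and 3. With limma on log2(TPM + 1), Ttn was -0.00065 between mESC and MEF and -0.025 between mESC and the partially reprogrammed lines, and 0 members were called between mESC and MEF and 0 between the partially reprogrammed lines and MEF; the prior in those TPM values gives Ttn 3.08 TPM in MEF on 10 reads. Thick over thin filament ratios without Ttn moved by less than the spread of the hairpin libraries. Ttn made only 0.428% to 2.07% of the summed member FPKM at day 9, so leaving it out could move them little. The ratios were not recomputed without Tpm1. The authors' bounds, found for survey values alone, were not applied to the time course shares. Short light chain transcripts were limited by depth, as 3 reads stood for up to 0.755 FPKM for Myl7 and 0.501 FPKM for Myl2 by annotated length. The Myl2 floor was probably higher.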

Other observations

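The microRNA gene Mir208a lies within the bounds of Myh6 in the deposited table (mm9 chr14:55567896-55567979). It was listed at 91.1 FPKM in the scrambled library of day 9, where Myh6 was highest, and at 0 in the other 11 libraries. Its locus of 83 bases is shorter than the sequenced fragments, so the number of reads behind that value is unknown, and the libraries held polyadenylated RNA, not mature microRNA. Mir208b and Mir499 were listed at 0 in all 12 libraries.

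Per length, Myl7 made 52.0% of the summed FPKM of the 8 members in hairpin A at day 9 and 22.9% in hairpin B, against 46.1% in the scrambled culture. Myl4 made 20.9% and 44.5% in hairpins A and B, against 22.4% in the scrambled culture. Ttn made 0.428% and 2.07% in hairpins A and B, against 0.447% in the scrambled culture.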
